A study of Mus musculus with 6 samples.

Results

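Across the autosomes, 227 windows of 1 Mb held 5hmC peaks in the list from injured mouse brain and none in the list from control brain. These injury-only windows were 12.5% of the 1823 autosomal windows that held a peak of either list, and 1536 of the other windows held peaks of both lists. They were selected on the peak positions themselves. Chromosomes 1 to 19 were divided into fixed windows of 1 Mb, each peak was placed by its midpoint, and windows with at least 1 injury peak and no control peak were kept. The presence of injury peaks and the absence of control peaks in them is therefore the choice and not a result.

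The mice were C57BL/6, and the tissue was brain, either after ischemic injury (label I/R) or from matched controls, with 3 mice in each group. The sources used here state no age, sex or brain region, and no duration of ischemia or recovery. DNA fragments that carry 5hmC were captured by hMe-Seal, in which a modified sugar is attached to 5hmC so that the labelled fragments can be pulled down, and were then sequenced. The data are 1 peak list per group on the mm9 build, with 53341 injury peaks and 20555 control peaks on the autosomes, no values for single mice and an unknown sequencing depth.

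5hmC is made from 5-methylcytosine by TET enzymes and is abundant in the DNA of neurons, where it is found mainly in the bodies of genes and at enhancers. Stretches of the genome with few active genes usually carry little of it. A peak list gives the places where captured fragments exceed the caller's threshold, so a window without a peak can still hold 5hmC below that threshold. Because whole tissue was used, a larger share of cells with 5hmC at a site and more 5hmC per cell cannot be told apart. Each group has 1 list, so the spread between mice is unknown and no test was made. The 95% intervals below (exact binomial for shares, exact order-statistic intervals for medians) cover counting error only, and neighbouring peaks are not independent.

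Most injury-only windows held very few peaks. The 227 windows held 610 injury peaks, which is 1.14% (1.06 to 1.24%) of the autosomal injury list and 0.797% of the bases it covers. Exactly 1 injury peak was found in 111 of them, 2 in 44, 3 in 17, 4 in 18 and 5 in 12, and the remaining 25 windows held 6 to 18. The mean was 2.69 injury peaks per window and the median 2, compared with a median of 25 injury peaks in the windows with both lists. The median injury-only window had 0.262% of its bases under a peak, and the fullest had 4.09%.

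The share of windows without a control peak was largest where injury peaks were fewest. Of the 166 windows with 1 injury peak, 66.9% (59.2 to 74.0%) had no control peak, and of the 98 windows with 2 injury peaks 44.9% (34.8 to 55.3%). Of the 437 windows with 1 to 5 injury peaks, 202 (46.2%) were injury-only. Of the 170 windows with 6 to 9 injury peaks 17 were injury-only (5.93 to 15.5%), and of the 256 windows with 10 to 18 injury peaks 8 were (3.13%, 1.36 to 6.06%). All 900 windows with 19 or more injury peaks held a control peak, with a median of 15 control peaks.

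**Figure D1:**
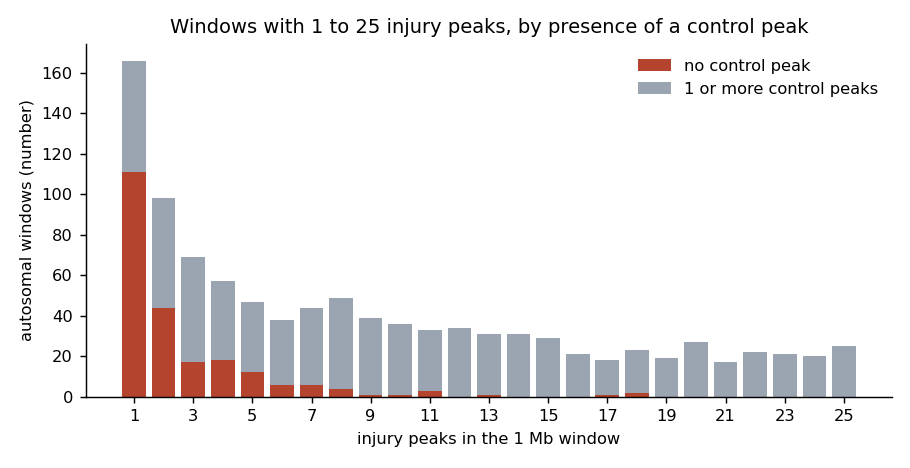
Number of autosomal 1 Mb windows (vertical axis) by the number of injury peaks they hold (horizontal axis, 1 to 25), split into windows without a control peak (red) and with 1 or more (grey). The red part falls from 111 of 166 windows at 1 injury peak to 0 from 19 injury peaks on.

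Windows with the opposite pattern were fewer in the lists as deposited. Control peaks without an injury peak were found in 60 windows, 3.29% of those with a peak, or 1 for every 3.78 injury-only windows. Of these, 57 held 1 control peak and 3 held 2, so no control-only window had more than 2 peaks, whereas 72 injury-only windows had 3 or more. Among the 168 windows with exactly 1 peak of any kind, the peak came from the injury list in 111 and from the control list in 57. That share, 66.1% (58.4 to 73.2%), had an interval that takes in the 72.2% of all autosomal peaks that were injury peaks. Injury-only windows outnumbered control-only windows on all 19 autosomes.

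This order did not hold when the injury list alone was restricted by score. The reduced list kept only the top-scoring injury peaks, in the same number as the whole control list. With it, 61 windows were injury-only, with at most 5 peaks each, and 212 were control-only, with at most 6. With only injury peaks at or above the injury median score, and the control list whole, the window numbers were 92 and 144. With both lists restricted to peaks at or above the control median score, they were 315 and 42. Each of these settings changes the score threshold and the list length together, so the parts of the 2 in the order cannot be told apart, and no read numbers are known for either list. All of the 61 and of the 92 windows are among the 227, since removing injury peaks can add none.

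**Figure D2:**
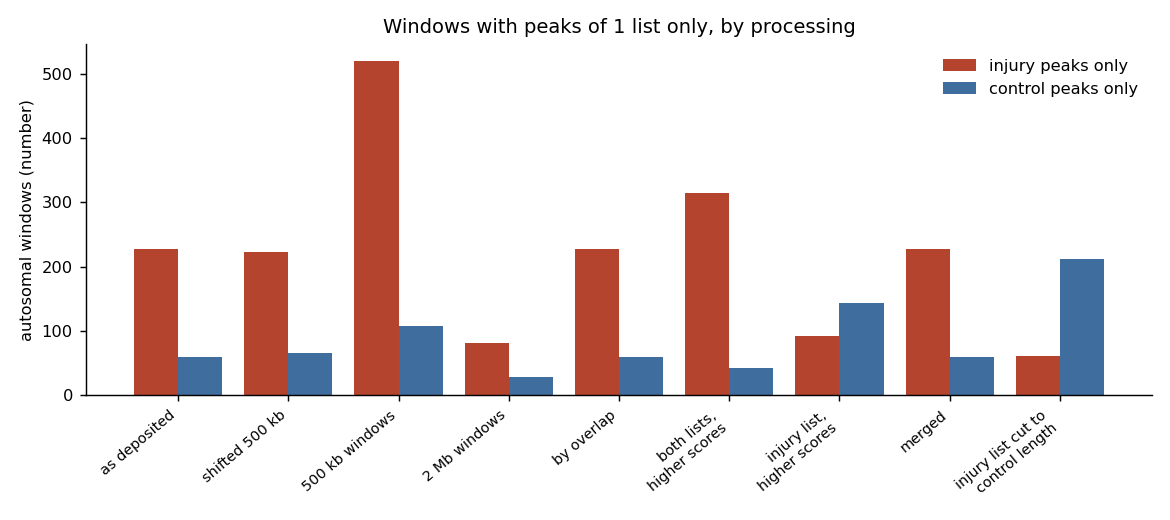
Number of autosomal windows (vertical axis) with injury peaks only (red) and with control peaks only (blue) in the lists as deposited and under 8 other processing choices (horizontal axis). The red bar is the taller one except with the injury list at or above its median score (92 against 144) and with the injury list cut to the length of the control list (61 against 212).

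The injury peaks in these windows were narrow and low in score. Their median width was 1570 bp (1535 to 1629 bp), with quartiles of 1301 and 2040 bp, against 2064 bp (2053 to 2074 bp) for the 52731 injury peaks in windows with both lists. A width under 2 kb was found for 73.3% of them (69.6 to 76.8%) and for 47.2% (46.8 to 47.7%) of the peaks in windows with both lists. Scores are values the authors deposited with the peaks, and they start at 50 in this list. The median score was 66.2 (64.3 to 67.7) in injury-only windows and 87.7 (87.2 to 88.3) in windows with both lists. Of the 52731 peaks in the latter, 18226 overlapped a control peak, which the rule allows in injury-only windows only across a border. The other 34505 had a median width of 1899 bp (1890 to 1908 bp) and a median score of 75.8 (75.3 to 76.2). Part of the contrast with all 52731 peaks is therefore set by the selection. Of the 610 peaks, 278 (45.6%, 41.6 to 49.6%) fell in the lowest-scoring 25% of the injury list, 30 (4.92%, 3.34 to 6.95%) in the highest-scoring 25% and 0 in the highest-scoring 10%.

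The 111 peaks that were alone in their window had a median width of 1393 bp (1300 to 1537 bp), and the 228 peaks of windows with 6 or more had 1735 bp (1625 to 1862 bp), whereas the median scores of these groups were 65.8 and 66.0.

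Set beside peaks without control overlap in similarly sparse windows, the difference in score was no longer seen. Windows with both lists and 1 to 5 injury peaks numbered 235 and held 650 injury peaks. Over all 650 the median width was 1632 bp (1568 to 1715 bp) and the median score 76.98 (73.05 to 80.77). Of the 650 peaks, 438 overlapped no control peak. These 438 peaks had a median width of 1572 bp (1530 to 1660 bp) and a median score of 67.1 (64.6 to 69.7). Injury-only windows with 1 to 5 injury peaks held 382 peaks, with a median width of 1505 bp (1433 to 1554 bp) and a median score of 66.2 (63.4 to 68.1). Both of these intervals overlapped those of the 438 peaks, but both lay below those of all 650. The 212 injury peaks of the sparse windows that did overlap a control peak were higher in score, at 102.7 (96.3 to 111.9). Their median width was larger, at 1773 bp (1625 to 1874 bp), but its interval overlapped that of the 438 peaks.

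At equal score, peaks of injury-only windows were also somewhat narrower than the 34505 injury peaks without control overlap in all windows with both lists. For scores from 50 to 60 the median widths were 1354 bp (1314 to 1395 bp, 211 peaks) and 1471 bp (1460 to 1485 bp). For scores from 60 to 80 they were 1554 bp (1491 to 1626 bp, 221 peaks) and 1713 bp (1699 to 1727 bp), and from 80 to 120 they were 1913 bp (1781 to 2041 bp, 127 peaks) and 2110 bp (2094 to 2125 bp). At scores of 120 or more the intervals overlapped, with medians of 2841 bp (2241 to 3265 bp, 51 peaks) and 3103 bp (3065 to 3137 bp). The windows compared here were not matched on peak number, and the part of peak number in these widths was not tested.

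**Figure D3:**
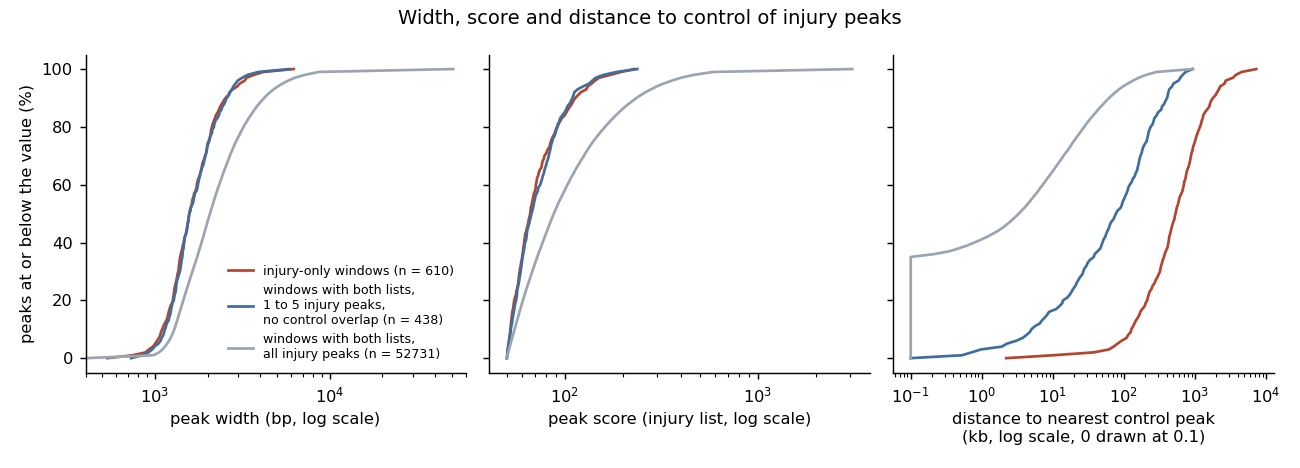
Cumulative share of injury peaks (vertical axis, %) by width in bp, by score on the scale of the injury list, and by distance in kb to the nearest control peak (horizontal axes, all logarithmic). Peaks of injury-only windows (red, n = 610) follow peaks without control overlap in sparse windows with both lists (blue, n = 438) in width and score. Their median width and score are lower than those of the injury peaks of all windows with both lists (grey, n = 52731). They lie farther from control peaks than either group.

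The highest-scoring peak of the injury-only windows was also the widest. It lay on chromosome 5 (39069222 to 39075448), was 6.23 kb wide, had a score of 229.18 and was 191.2 kb from the nearest control peak. Its score put it at rank 5557 of the 53341 injury peaks. The next, on chromosome 7 (122596428 to 122600738), had a score of 218.28 and a width of 4.31 kb. The third lay on chromosome 6 (41565383 to 41571523) and measured 6.14 kb. Its score was 213.58, and it was 741.2 kb from a control peak and 264 bp from the nearest other injury peak. The leading 5 were completed by a peak on chromosome 4 (35043146 to 35045365), which scored 212.92, and by one on chromosome 13 (36673386 to 36676643), which scored 208.49. Width and score did not always go together. A peak of 4.63 kb on chromosome 12 (89644305 to 89648930) had a score of only 89.5. Among the 5 widest were also peaks of 4.77 kb on chromosome 15 (10550152 to 10554922) and 4.37 kb on chromosome 7 (116167488 to 116171861), with scores of 158.8 and 156.67. Only 7 of the 610 peaks were 4 kb wide or more.

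The distance to control peaks was measured without regard to windows. None of the 610 peaks overlapped a control peak, which could have reached across a window border, and 65.8% of all autosomal injury peaks had no overlap. The median distance to the nearest control peak was 535.5 kb (482.5 to 590.8 kb), with quartiles of 254.8 and 1007 kb and a range of 2.21 kb to 7.35 Mb. Injury peaks without overlap in the sparse windows with both lists had a median distance of 77.5 kb. No control peak lay within 500 kb of 322 of the 610 peaks (52.8%, 48.7 to 56.8%), compared with 410 of all autosomal injury peaks (0.769%). Injury-only windows thus held 78.5% (74.2 to 82.4%) of the injury peaks that are this far from any control peak. Both the rule and these distances use the control positions, so the distances describe the selection and add no evidence for it.

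Window borders decided a part of the membership. In 9 windows an injury peak lay within 50 kb of a control peak on the other side of a border, and the closest pair was 2.21 kb apart. In 129 windows no injury peak had a control peak within 500 kb, and in 73 of them none within 1 Mb. When the grid was shifted by 500 kb there were 222 injury-only windows, but only 248 of the 610 peaks (40.7%, 36.7 to 44.7%) lay in one of them. All injury peaks of 106 of the original windows stayed in injury-only windows of the shifted grid, some did in 19, and none did in 102.

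A window without a control peak lies by the rule in a control-free stretch of about 1 Mb or more, so the lengths of these stretches describe the selection. Control peaks lay on both sides of 226 of the windows on their chromosome, and these windows fell in 178 stretches, of which 122 were 2 Mb or longer. Counted per window, the stretch was 1.11 to 18.8 Mb long with a median of 3.30 Mb. The longest was on chromosome 14, from 80173703 to 98981815, and held 5 injury peaks in all.

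The injury-only windows with the most peaks differed in how closely the peaks lay together. The window of chromosome 7 from 116 to 117 Mb held 18 injury peaks that covered 40.9 kb, with scores of 52.4 to 178.0 and a median of 61.2. With steps of at most 50 kb they formed 8 groups, the largest of 6 peaks over 53.1 kb (116280476 to 116333571). The window before it held no peak of either list, and the window after it held 29 injury and 9 control peaks, the nearest 8.33 kb away. The window of chromosome 15 from 10 to 11 Mb also held 18 injury peaks, covering 40.2 kb, with scores of 52.6 to 158.8 and a median of 76.9. Of these, 13 lay in 1 group of 139.6 kb (10503886 to 10643472), and the nearest control peak was 130.9 kb away. In both windows the highest-scoring peak lay inside this largest group.

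On chromosome 1 from 62 to 63 Mb there were 17 injury peaks, 14 of them within 127.5 kb (62747893 to 62875378). Of the gaps between them, 3 were shorter than 1 kb, at 55, 65 and 243 bp. Their scores ran from 52.0 to 190.73, and the nearest control peak was 123.4 kb away. On chromosome 4 from 9 to 10 Mb, 8 of 13 injury peaks lay in a group of 63.4 kb (9007000 to 9070436) at the start of the window. The nearest control peak was 53.0 kb before it, in a window with 55 injury and 18 control peaks.

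The window of chromosome 18 from 50 to 51 Mb had all of its 11 injury peaks in 1 group of 183.9 kb (50162973 to 50346864), with the highest score, 181.74, at its first peak. Its neighbours were nearly empty, with 1 injury and 2 control peaks before it and 1 of each after it, and the nearest control peak was 247.5 kb away. The windows of chromosome 12 from 53 to 54 Mb and of chromosome 3 from 126 to 127 Mb also held 11 injury peaks each, with best scores of 196.76 and 128.24. They were spread over 991.0 and 909.4 kb, with 4 and 5 peaks in the largest group. The 9 peaks on chromosome 7 from 145 to 146 Mb lay in 6 groups, none with more than 2 peaks. This window and chromosome 2 from 10 to 11 Mb (8 peaks) had best scores of 110.3 and 108.53, and on chromosome 2 a control peak lay 5.88 kb from the first injury peak.

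Among these leading windows, chromosome 15 from 66 to 67 Mb stood farthest from control peaks. It held 10 injury peaks, 8 of them within 79.3 kb (66719757 to 66799031), with scores of 50.54 to 136.47 and a median of 69.3. The nearest control peak was 1072 kb away, the preceding window held no peak and the next held 1 injury peak. It was the only one of the 10 windows with the most peaks whose injury peaks all remained in an injury-only window with the grid shifted by 500 kb and with windows of 2 Mb. In the reduced injury list it kept 3 of its 10 peaks.

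**Figure D4:**
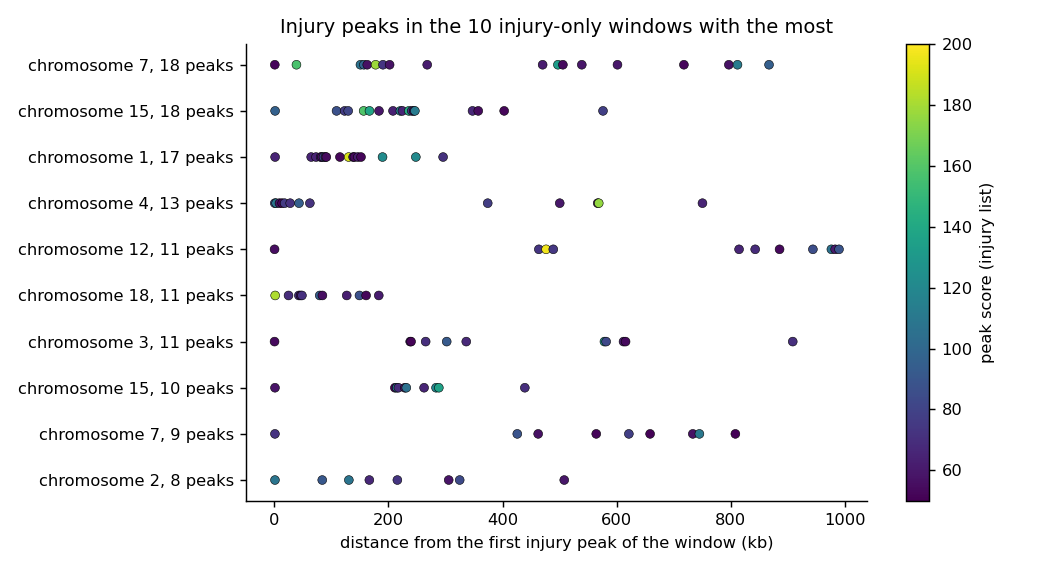
Injury peaks (points) of the 10 injury-only windows with the most peaks, by distance in kb from the first injury peak of the window (horizontal axis) and coloured by score on the scale of the injury list. All 11 peaks of the chromosome 18 window lie within 183.9 kb, whereas those of the chromosome 12 window are spread over 991.0 kb.

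Grouping was weaker over the whole set than in peak-rich parts of the genome. Another injury peak lay within 5 kb of 21.3% (18.1 to 24.8%) of the peaks of injury-only windows and of 70.8% (70.4 to 71.2%) of those in windows with both lists. The former include 111 peaks alone in their window, of which 0 had another that near, and without them the share was 26.1% (22.3 to 30.1%). For the peaks without control overlap in windows with both lists it was 65.6% (65.1 to 66.1%). With 2 to 5 injury peaks per window the shares were 20.7% (16.0 to 26.0%) in injury-only windows and 23.5% (20.2 to 27.1%) in windows with both lists, with overlapping intervals. With 6 or more they were 32.5% (26.4 to 39.0%) in injury-only windows and 43.3% (41.8 to 44.7%) in windows with both lists and 6 to 18 injury peaks. This last class was not matched on peak number. Injury-only windows were 17 of the 170 windows with 6 to 9 injury peaks and 8 of the 256 with 10 to 18. The part of peak number in this difference was not tested. Of the 116 injury-only windows with 2 or more peaks, 32 had them all in 1 group with steps of at most 50 kb, 33 had no pair that close, and 20 had a pair under 1 kb apart.

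Injury-only windows lay mostly among sparse neighbours. The windows directly beside them held a median of 3 injury peaks and 1 control peak, against 21 and 6 beside windows with both lists, and 3 and 1 beside windows with both lists and 1 to 5 injury peaks. Beside the 202 injury-only windows that also held 1 to 5 injury peaks the medians were 2 and 1. In 48 of the 227 (21.1%), and in 44 of the 202 (21.8%), neither neighbouring window held a control peak. This compares with 40 of 235 (17.0%) for windows with both lists and 1 to 5 injury peaks and 5.73% for all windows with both lists. A window touched another injury-only window in 56 cases (24.7%, 19.2 to 30.8%), which made 23 pairs, 2 runs of 3 windows and 1 run of 4.

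The run of 4 was on chromosome 18 from 7 to 11 Mb. It held 8 injury peaks in a stretch of 4.09 Mb without a control peak, and their scores were 51.43 to 118.52 and their widths at most 1690 bp. The 3 windows of chromosome 13 from 17 to 20 Mb held 9 injury peaks with scores up to 85.27 in a control-free stretch of 6.61 Mb. The 3 windows of chromosome 14 from 111 to 114 Mb held 1 injury peak each, with scores of 51.25, 130.23 and 84.23, in a control-free stretch of 8.94 Mb. None of these runs had a peak in the highest-scoring 25% of the injury list.

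The 3 windows farthest from control peaks held few peaks, most of them low in score. On chromosome 14 from 87 to 88 Mb, 3 injury peaks with scores of 56.9, 50.98 and 65.21 lay at least 6.96 Mb from any control peak. On chromosome 4 from 73 to 74 Mb the only peak (73876658 to 73877982) had a score of 50.09, close to the threshold of the list, and was also 6.96 Mb from a control peak. The window of chromosome 4 from 69 to 70 Mb, at 4.61 Mb from a control peak, held peaks of higher score, 164.43 (69906050 to 69908303) and 114.19 (69943665 to 69945751), beside 1 of 52.5. None of these 3 windows had a peak of either list in the windows beside it. The windows next in distance had mixed best scores. These were 101.67 and 133.83 on chromosome 6 (13 to 14 and 12 to 13 Mb), 89.6 on chromosome 12 (41 to 42 Mb) and 80.4 on chromosome 3 (72 to 73 Mb).

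Injury-only windows were more frequent toward the centromeric end of the mouse chromosomes, whose centromere lies near the first base. In the first 20% of the length up to the last peak, 60 of 308 windows with a peak were injury-only (19.5%, 15.2 to 24.4%), and in the last 20% 29 of 453 (6.40%, 4.33 to 9.06%). Peak number moved with position. The median window held 8.5 injury peaks in the first 20% and 34 in the last. Among windows with 1 to 5 injury peaks the shares were 51.4% (41.5 to 61.2%) and 36.8% (25.4 to 49.3%), with overlapping intervals. The part of peak number in the gradient was not tested further.

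By chromosome, the share of windows that were injury-only ran from 2.86% on chromosome 17 (2 of 70, 0.348 to 9.94%) to its highest value on chromosome 3 (22 of 116, 12.3 to 27.3%). Chromosome 13 (17 of 93, 18.3%) and chromosome 6 (18 of 112, 16.1%) were also high, and chromosome 9 (7 of 103, 6.80%) and chromosome 11 (8 of 104, 7.69%) low. Autosomes with fewer injury peaks per Mb had larger shares, with a Spearman rho of -0.66 over the 19 autosomes, all of which come from the same 2 lists. The 5 sparsest autosomes had 16.1% (13.0 to 19.7%) and the 5 densest 9.92% (7.38 to 13.0%). Within windows of 1 to 5 injury peaks these became 47.7% (39.6 to 55.9%) and 43.6% (33.4 to 54.2%), with overlapping intervals. Chromosomes 15 and 4 had shares of 15.8% (8.43 to 26.0%) and 14.7% (8.63 to 22.7%) although they were among the 5 densest.

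**Figure D5:**
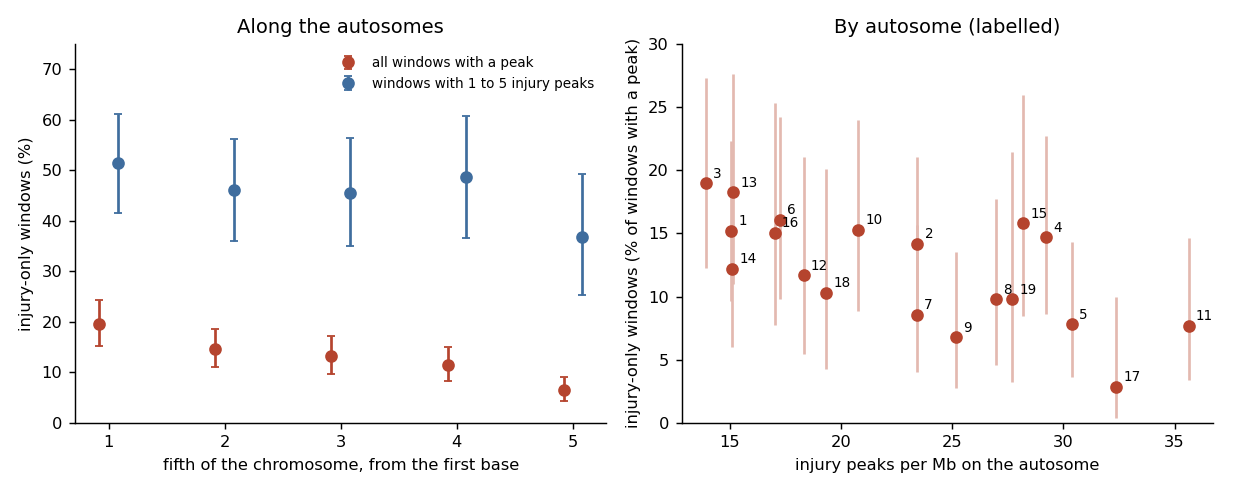
Share of windows that were injury-only (vertical axes, %) by position along the autosome in steps of 20% of its length (left, for all windows with a peak and for windows with 1 to 5 injury peaks) and by injury peaks per Mb of each autosome (right, labelled by number). Bars are exact 95% binomial intervals. The share in all windows goes from 19.5% to 6.40% along the chromosome, while the intervals for windows with 1 to 5 injury peaks overlap.

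At the edge of the rule, 1 control peak decided membership. Just inside, the single injury peaks of the 111 one-peak windows had scores of 50.09 to 204.95 with a median of 65.84. Just outside, 193 windows held exactly 1 control peak beside 1 to 25 injury peaks, with a median of 3. In 125 of these an injury peak overlapped the control peak. Over all 193 windows the control peaks had a median score of 67.61 on the scale of the control list. The windows with the most injury peaks among them were chromosome 5 from 103 to 104 Mb (25 injury peaks, control score 55.3), chromosome 4 from 82 to 83 Mb (23, control score 58.53), chromosome 2 from 125 to 126 Mb (18, control score 103.16), chromosome 6 from 5 to 6 Mb (15, control score 53.62) and chromosome 12 from 17 to 18 Mb (14, control score 51.16). In 4 of these 5, chromosome 2 being the exception, the control peak that kept the window out had a score below 60.

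A small number of injury-only windows met several alternative definitions at once. At least 1 injury peak of the reduced list was found in 61 windows, 2 or more in 12 and 3 or more in 5. These 5 were on chromosome 15 from 10 to 11 Mb and chromosome 7 from 116 to 117 Mb, each with 5 such peaks, and on chromosome 1 from 62 to 63 Mb, chromosome 15 from 66 to 67 Mb and chromosome 19 from 15 to 16 Mb, each with 3. In 13 windows all injury peaks stayed in an injury-only window of the shifted grid and of the 2 Mb grid, and at least 1 peak was in the reduced list. Those with more than 1 injury peak were chromosome 15 from 66 to 67 Mb (10 peaks), chromosome 13 from 15 to 16 Mb (4), chromosome 15 from 55 to 56 Mb (4) and chromosome 4 from 69 to 70 Mb (3). This combination, and the windows it names, were chosen after the values were seen.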

How the data were processed

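Brain DNA enriched for 5hmC from 3 injured and 3 control mice was the material, and 1 peak list per group was analysed. Per the submitters' processing notes, CASAVA 1.4, Bowtie 0.12.9, MACS 1.4.2 and the build mm9 were used; the sources used here give no settings, pooling of mice, input controls or read numbers. The deposited score of each peak was taken as the usual score of the caller, a scaled logarithm of its p-value, which no header states, and was compared only within the injury list unless stated. Deposited starts were converted to count from 1. List names that match the sample labels gave the groups.

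Windows, distances and intervals were computed with Python 3.11.15, numpy 2.4.6, pandas 2.3.3 and scipy 1.17.1, and drawn with matplotlib 3.10.9; the functions were tested on simulated peaks. Distances are between nearest ends, and position is relative to the last peak of a chromosome. Gene names and bases were not used here, since the reference tables are of another build. Windows named were the 10 with the most injury peaks (ties by bases covered, which chose the tenth among 4 windows with 8 peaks), the 5 highest-scoring and 5 widest peaks, the 3 longest runs, the 3 windows farthest from control peaks and the 5 windows with 1 control peak and the most injury peaks (the last of them tied with others). The 8 alternatives covered window length and grid, assignment, score thresholds, merging within 1 kb and list length. The members and rules were chosen with earlier results of these data known.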

Additional observations from a re-analysis of the deposited data

How the results depend on the processing

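With windows of 500 kb there were 520 injury-only windows with 1364 injury peaks, a median control distance of 336.3 kb and 31.35% in runs. With windows of 2 Mb these were 82, 197, 1236 kb and 17.07%, with 2.402 peaks per window and a median width of 1511 bp. With a score of 79.65 (the control median) required in both lists there were 957 injury peaks, 3.038 per window, a median width of 2165 bp, a median score of 104.2, a median distance of 776.8 kb, 36.51% in runs and 7.5 injury-only windows per control-only window. With the injury list alone at or above its median score (87.33) there were 92 windows and 141 peaks, 1.533 per window, 2189 bp, a score of 110.1, 15.22% in runs, and the ratio to control-only windows turned to 0.639. With the reduced injury list there were 61 windows and 82 peaks, 1.344 per window, 2391 bp, a score of 130.2, 9.836% in runs and a ratio of 0.288. Restriction by score raises the median score by construction, and the cause of the larger widths was not tested. With shifted windows the median width was 1534 bp. Of 67 values, 35 stayed within 1.5 times the count or within the interval, which includes every value under assignment by overlap and under merging. They also include 410 peaks with no control peak within 500 kb, an alternative added after the data were seen, whose medians were 1544 bp and a score of 65.31. No paired analysis was possible because the lists hold no values of single mice, so no mouse could be left out either. The unknown depth limits every statement on the absence of control peaks.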

Other observations

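On the X chromosome, which the autosomal windows leave out, injury-only windows did not outnumber control-only windows. Its 27 windows with a peak held 33 injury and 28 control peaks, and 9 windows were injury-only, 9 control-only and 9 held both. The lists were thus closer in length on X than on the autosomes, where 72.2% of the peaks were injury peaks. With so few windows, a difference between X and the autosomes was not tested. The fullest injury-only window of X held 4 injury peaks.

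The control peaks of the 60 control-only windows were also narrow and low in score within their own list. The median width of these 63 peaks was 1559 bp, against 2655 bp for all autosomal control peaks, and their median score was 66.96, against 79.59. Between the first and last window with a peak on each autosome, 563 of 2386 windows held no peak of either list.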
